A study of Prunus persica with 18 samples.

Results

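Among the 26873 peach genes counted in axillary buds, 100 were chosen by their measured levels, which were higher in basal than in apical buds at all 3 sampling dates. The level used was CPM, the reads of a gene scaled to a library of 1e+06 counted reads. The choice required a mean of at least 1 CPM over the 18 libraries, all basal libraries above all apical libraries at T1 and again at T3, and a ratio of the basal to the apical mean above 1.33 at T5. Of 17757 genes with enough reads, 5324 passed the condition at T1, 3644 of these also passed at T3, and 333 passed all conditions. The 100 with the largest value of their smallest ratio over the 3 dates were kept. The last gene inside was PRUPE_1G194100, with a smallest ratio of 1.52094, and the first outside was PRUPE_1G255100, with 1.52086. The next on either side were PRUPE_6G126400 with 1.52163 and PRUPE_8G146600 with 1.51532, so that no gap in the ratios marks the limit.

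The buds were cut from shoots without treatment on trees of Platinet 1, a flat nectarine, in 1 field season. Sampling took place at 45 DAFB (days after full bloom, T1), 58 DAFB (T3) and 79 DAFB (T5), and buds of the apical part and of the basal part were kept apart. This gives 6 groups (apical and basal buds at T1, T3 and T5) of 3 biological replicates each, for 18 RNA-Seq libraries. All groups share the same cultivar, orchard and season, and each replicate pooled buds of several shoots. RNA was extracted from excised buds, and the paper raises that tissue around the very small buds could have biased the profiles. It takes the upregulation of the pathway for the passage of meristems to reproduction as a sign of correct sampling. Fewer cells of a type and less RNA per cell cannot be told apart.

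In peach, flower buds form in the leaf axils of the growing shoot and open in the following spring. The meristem of such a bud first makes leaves and scales and later turns to making a flower. A shoot grows from its tip, so that buds near its base are formed before those near the apex.

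Between 21114469 and 47286272 reads were counted in a library (median 32404377.5). The meristem identity genes served as a check of the labelled tissue. CEN and TFL1, whose Arabidopsis relatives keep meristems from turning into flowers, had group means between 1.60 and 7.57 CPM and between 7.13 and 26.2 CPM, while AP1, which marks floral meristems, stayed between 0.354 and 0.865 CPM. None of the members could be given a gene name, because 0 of the identifiers matched the gene table at hand. Members are therefore called by their identifiers, in which the first digit is the chromosome. Of the 15 genes that the study names by identifier, 0 were members.

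The basal to apical ratio of the members was used to choose them and is given without a test. At T1, the ratio ranged from 1.54 to 8.48 with a median of 2.15, beside a median of 1.01 over the 17757 genes. At T3, it ranged from 1.53 to 5.28 with a median of 2.39, beside 1.03. At T5, it ranged from 1.52 to 5.18 with a median of 1.77, beside 0.965. The gap was narrowest at T5 in 64 of the 100 members, at T1 in 20 and at T3 in 16, and it was widest at T3 in 56, at T1 in 34 and at T5 in 10. A ratio of at least 3 was reached by 26 members at T1, by 22 at T3 and by 4 at T5. Since T5 was the only date at which the rule set a limit on the mean ratio, and the smallest of the 3 ratios decided the place of a gene, these counts describe the choice and nothing further.

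**Figure D1:**
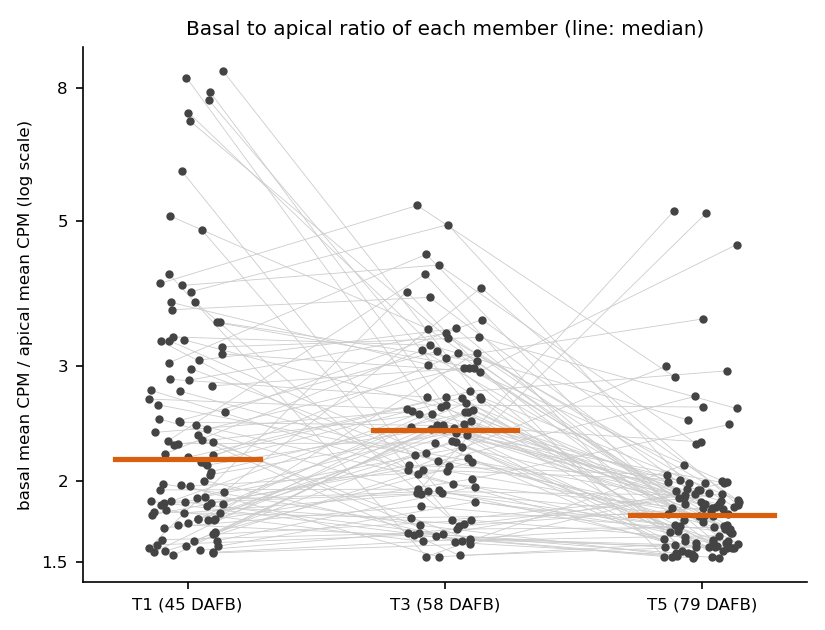
Ratio of the basal to the apical mean CPM (log scale) of each of the 100 members at T1, T3 and T5, with 1 point per member, thin lines joining the points of a member and thick lines at the medians of 2.15, 2.39 and 1.77. The highest points of T1 come down at T3 and T5, while a few members stand far above the median at T5.

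PRUPE_1G244900, on chromosome 1, kept the largest smallest ratio of all members. At T1, it had 3.52, 3.72 and 4.66 CPM in apical buds and 23.8, 35.4 and 27.98 CPM in basal buds. At T3, it had 1.57, 2.60 and 2.73 CPM in apical and 11.3, 5.68 and 4.29 CPM in basal buds, and at T5 5.82, 6.67 and 5.81 CPM against 21.2, 26.2 and 17.3 CPM. Each basal library was above each apical library of its date, and the T3 libraries were the lowest in both kinds of buds. The ratios were 7.33, 3.08 and 3.54.

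PRUPE_6G307400, on chromosome 6, was the next. Its apical libraries had 0.444, 1.07 and 1.16 CPM at T1, 0.675, 1.28 and 1.75 CPM at T3 and 2.23, 0.916 and 1.57 CPM at T5. Its basal libraries had 3.16, 2.12 and 3.09 CPM at T1, 3.29, 3.74 and 3.86 CPM at T3 and 7.74, 7.33 and 6.62 CPM at T5. Every basal library was thus above the apical ones of its date, and the ratio was widest at T5, with 4.60.

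PRUPE_8G047500, on chromosome 8, followed with the widest T3 gap of all members. At T3, it had 4.30, 8.57 and 7.79 CPM in apical and 36.0, 33.7 and 39.4 CPM in basal buds, a ratio of 5.28. At T1, the values were 7.20, 5.90 and 5.77 against 23.7, 27.6 and 24.4 CPM, and at T5 9.05, 4.61 and 6.06 against 18.8, 17.4 and 20.6 CPM. The basal libraries were again the higher ones at each date, with the narrowest gap at T5.

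Full separation of the libraries was part of the rule at T1 and T3, where it held for 30% and 31.7% of the 17757 genes. At T5 it was not, and there all 3 basal libraries lay above all 3 apical ones in 77 of the 100 members, beside 10.4% of the genes. The rule had used the T5 means, so that nothing is read from this count. The other 23 members overlapped through 1 library above all. Apical T5 replicate 1 was the highest of its group in 78 members (54.8% of all genes). It was at or above the lowest basal library in 23 members (82.1% of the genes). Apical T5 replicates 2 and 3 were so in 1 member each (63.9% and 64.9%). The choice by the T5 ratio makes such counts low, and nothing is read from their distance to these shares. Without apical T5 replicate 1, the basal libraries were separate in 98 members (26.7% of the genes). The median ratio at T5 was then 2.07 in place of 1.77. PRUPE_1G194100, the last gene inside the limit, is such a case, with 17.8, 8.90 and 9.21 CPM in apical T5 buds and 19.0, 17.6 and 17.99 CPM in basal T5 buds.

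Apical T3 replicate 1 stood apart in the other direction. It was the lowest of its group in 61 members, beside 46.8% of all genes, and without it the median ratio at T3 was 2.17 in place of 2.39. With the libraries matched by replicate number, the median difference on the log2 scale was 1.49, 1.09 and 1.04 at T3, 0.51, 1.13 and 0.87 at T5, and 1.07, 1.19 and 1.03 at T1. In these matched pairs, the basal library was the higher one in 100 members each time, except for 99 in the first pair of T5. The rule fixed this count at T1 and T3 and had used the means at T5, so that nothing is read from it. The paper also describes an apical T3 replicate as an outlier when all samples were clustered, and an apical T5 replicate lying beside the basal ones. It does not number these replicates. What set these 2 libraries apart was not tested.

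The median member took fewer reads than the median gene. Over the 18 libraries, their mean ranged from 1.07 to 1162 CPM with a median of 8.99, beside a median of 20.6 for the 17757 genes. CPM is not divided by gene length, so that these values tell how many reads a gene gave and not how many transcripts it had. Between 1 and 10 CPM lay 51 members (32.5% of the genes), between 10 and 100 CPM 38 members (54.5%), and above 100 CPM 11 members (13.1%). The 3 with the most reads, PRUPE_1G498400, PRUPE_1G498800 and PRUPE_1G505400, together gave 42.8% of the reads of all members. No member was at or under 3 counts in all libraries of a group.

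**Figure D2:**
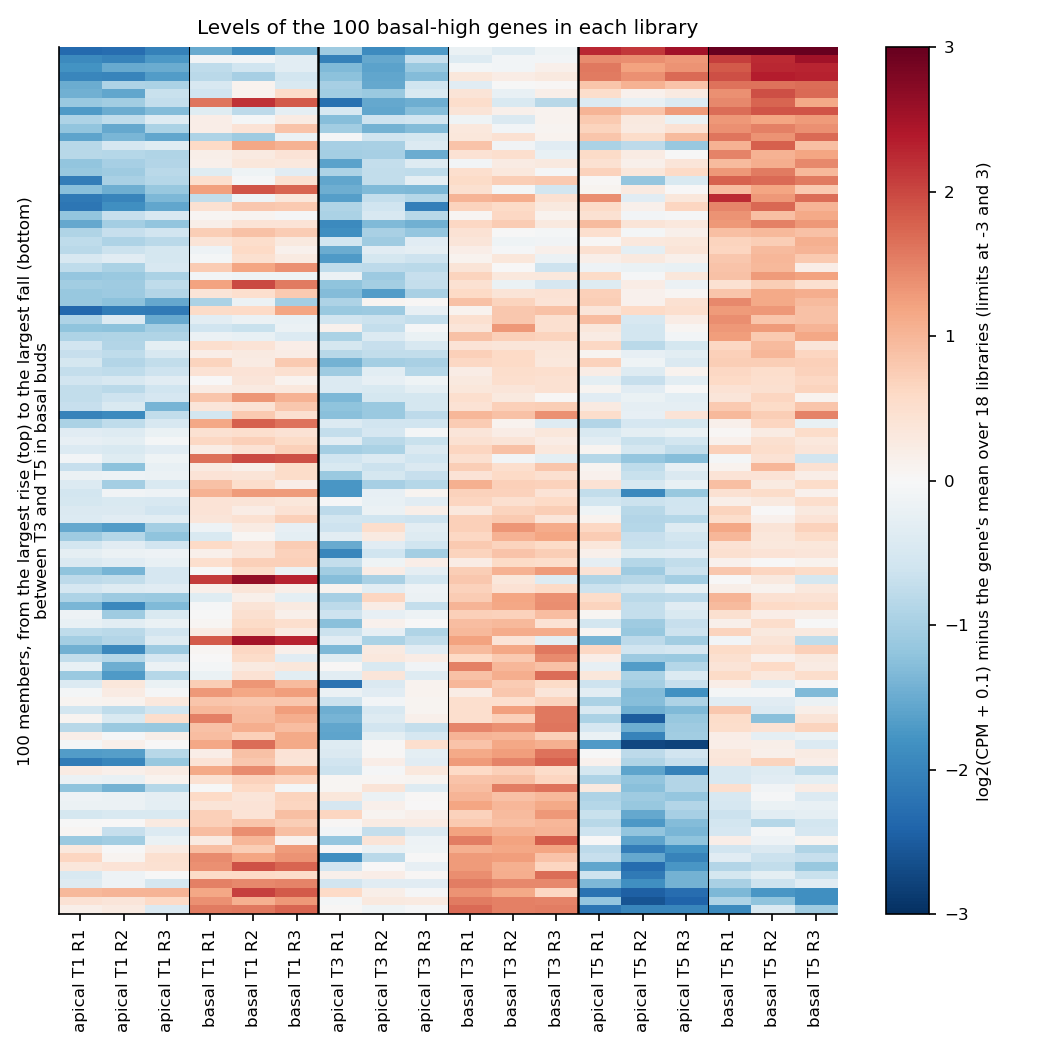
Level of each of the 100 members (rows) in each of the 18 libraries (columns, R1 to R3 for the replicates), as log2(CPM + 0.1) minus the mean of the gene over the libraries, with rows ordered by the change between T3 and T5 in basal buds. Basal columns are redder than the apical columns of the same date, the upper rows are highest at T5, the lower rows are lowest at T5, and apical T5 R1 is less blue than its 2 replicates in many rows.

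Changes over time within a position were not used by the rule as such, but they come from the same libraries, so that the choice can shape them. They were tested across all genes with edgeR's quasi-likelihood test. Calls needed an FDR under 0.01 together with at least a 2-fold change, and all log2 fold changes are coded as later minus earlier. All 100 members passed the filter on low counts. In basal buds, 14 members rose and 3 fell between T1 and T3, beside 0.497% and 0.43% of the 19304 genes tested. The median log2 fold change of the members was 0.19, beside a median of 0.00 over all genes. Between T3 and T5, 18 members rose and 18 fell (8.46% and 8.9% of the genes), with a median of -0.05. Between T1 and T5, 25 rose and 15 fell (9.41% and 9.87%, or 19.3% together), with a median of 0.26.

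The count between T1 and T3 depended on single libraries. The 17 calls became 4 without basal T1 replicate 1, 5 without basal T1 replicate 3, 9 without basal T3 replicate 2 and 7 without basal T3 replicate 3, beside 0.626% to 0.719% of all genes tested in these 4 fits. In a single fit of all 18 libraries, 5 members rose and 7 fell over this interval (0.324% and 0.37% of the genes). Rises did not outnumber falls there, while both counts were above these shares. Only PRUPE_1G498400, PRUPE_1G498800 and PRUPE_4G116900 kept their call whichever of the 6 libraries was left out. Of the calls with T5, 25 of 36 (T3 to T5) and 33 of 40 (T1 to T5) did so in basal buds.

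In apical buds, 0 members were called between T1 and T3 by edgeR, beside 0.056% of the 19636 genes tested, with 31 members at an unadjusted p under 0.05 (19% of the genes) and 5 calls by DESeq2 (0.917%). Between T3 and T5, 24 members rose and 12 fell (8.65% and 12.1% of the genes), with a median log2 fold change of 0.16. Of these 36 calls, 24 held whichever library was left out. Between T1 and T5, 28 rose and 10 fell (9.47% and 12.8%), with a median of 0.60 beside 0.01 over all genes, and 29 of the 38 calls held. Falls were near the background share in apical buds, and rises were above it. The rule asked for full separation at T1 and T3 but only for a mean ratio at T5. It can therefore favour apical levels that are low before T5, and nothing is read from the excess of rises.

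**Figure D3:**
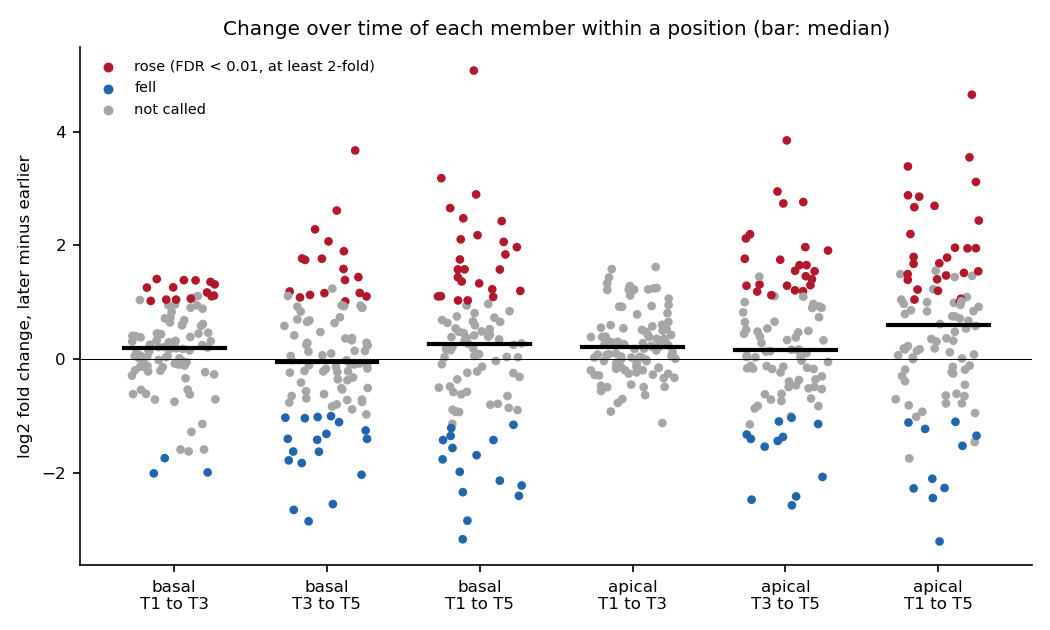
Log2 fold change (later minus earlier) of each of the 100 members in the 6 contrasts of dates within basal or apical buds, with members that rose in red, members that fell in blue, those not called in grey and bars at the medians. The contrasts with T5 spread from falls of about -3 to rises of about 5, apical buds show no coloured point between T1 and T3, and the median is highest, at 0.60, for apical T1 to T5.

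Of the 100 members, 65 were called in at least 1 of the 6 contrasts and 35 in none, beside 32.1% of the 19211 genes tested in both kinds of buds that were called at least once. Between T3 and T5, 16 members rose in both kinds of buds (5.43% of these genes) and 11 fell in both (5.86%). A rise was called in basal buds alone in 2 members (2.81%) and in apical buds alone in 8 (3.22%). A fall was called in basal buds alone in 7 (3.03%) and in apical buds alone in 1 (5.92%). The opposite direction was called in 0 members (0.172%), and the difference between the positions was not tested. Without regard to calls, the libraries of the earlier and later date were separate and moved in opposite directions in the 2 positions in 1 member from T1 to T3 (2.99% of the 17757 genes), in 1 from T3 to T5 (2.61%) and in 3 from T1 to T5 (2.13%). These 5 members stand beside 6.83% of the genes over the 3 intervals. Read over the 3 dates in basal buds, 2 members rose in both intervals (0.12% of these genes), 2 rose and then fell (0.0937%), 1 fell and then rose (0.151%), and 52 were called in neither interval (82.2%).

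PRUPE_1G498800, on chromosome 1, had the largest rise of all members in each of the 5 contrasts with calls. It had 65.4, 50.1 and 71.5 CPM in basal buds at T1, 163, 143 and 170 CPM at T3 and 1631, 1969 and 1894 CPM at T5. In apical buds, it had 36.7, 38.3 and 45.6 CPM at T1, 88.7, 50.6 and 57.4 CPM at T3 and 887, 812 and 1064 CPM at T5. The 3 dates did not overlap in either position, and basal buds were above apical buds at each of them. The log2 fold change from T3 to T5 was 3.67 (SE 0.14, FDR 4.61e-09 by edgeR) in basal and 3.85 (SE 0.24, FDR 3.94e-06) in apical buds, and that from T1 to T3 was 1.41 (SE 0.13, FDR 0.000153) in basal buds.

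PRUPE_1G498400, near it on the chromosome, gave more reads and had the next largest rise from T1 to T5 in both positions. It had 399, 352 and 472 CPM in basal buds at T1, 885, 813 and 847 CPM at T3 and 2670.1, 3559.7 and 3426 CPM at T5. Its apical libraries had 179, 176 and 216 CPM at T1, 295, 237 and 280 CPM at T3 and 2058, 1808 and 2246 CPM at T5. These 2 were the members that rose in both intervals in basal buds, and the ratio of PRUPE_1G498400 was widest at T3, with 3.13. From T1 to T5, it rose by a log2 fold change of 3.18 (SE 0.14, FDR 7.62e-09 by edgeR) in basal and 3.55 (SE 0.16, FDR 8.83e-07) in apical buds.

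The adjacent gene PRUPE_1G498300 was a member as well. It had 114, 85.0 and 121 CPM in basal buds at T1, 191, 161 and 158 CPM at T3 and 467, 544 and 538 CPM at T5. Over the 18 libraries, its log2 CPM had a Pearson's correlation of 0.986 with PRUPE_1G498400 and of 0.965 with PRUPE_1G498800, and these 2 had 0.979 with each other. These correlations are descriptions over libraries that share their dates and positions, and the genes are 1 to 5 rows apart in the gene order. Of the genes between them, PRUPE_1G498600 had ratios of 1.04, 2.42 and 2.52 at T1, T3 and T5 and PRUPE_1G498700 had 1.10, 1.83 and 1.57, so that neither had the T1 gap, and PRUPE_1G498500 had almost no reads. Without sequences of these genes, it was not tested whether near-identical copies share reads among them.

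PRUPE_1G505400, also on chromosome 1, went the other way. In basal buds it had 897, 1317 and 1162 CPM at T1, 848, 724 and 543 CPM at T3 and 189, 209 and 159 CPM at T5. In apical buds it had 438, 460 and 476 CPM at T1, 228, 351 and 291 CPM at T3 and 119, 70.1 and 103 CPM at T5. The libraries of each date lay below those of the date before in both kinds of buds, and the ratios were 2.46, 2.43 and 1.90. From T1 to T5, it fell by 2.41 on the log2 scale (SE 0.20, FDR 4.37e-06 by edgeR) in basal and by 2.11 (SE 0.20, FDR 2.41e-05) in apical buds.

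Another rise came from PRUPE_2G290200 on chromosome 2. It had 53.0, 66.0 and 65.8 CPM in basal buds at T3 and 296, 329 and 398 CPM at T5, after 64.4, 65.6 and 56.2 CPM at T1. T1 and T3 overlapped and T5 lay far above both. The log2 fold change from T3 to T5 was 2.61 (SE 0.15, FDR 3.05e-07 by edgeR) in basal and 2.74 (SE 0.28, FDR 4.85e-05) in apical buds. PRUPE_6G281000 on chromosome 6 was the other named rise from T1 to T3, from 1.85, 3.26 and 1.77 CPM to 6.85, 5.88 and 4.94 CPM in basal buds, a log2 fold change of 1.38 (SE 0.23, FDR 0.00256 by edgeR). Its FDR was between 0.0117 and 0.0122 without basal T1 replicate 1, basal T1 replicate 3 or basal T3 replicate 1, past the limit of 0.01.

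The 3 largest falls from T3 to T5 in basal buds were those of PRUPE_5G014900, PRUPE_3G035700 and PRUPE_8G126000. PRUPE_8G126000 on chromosome 8 had 61.4, 113 and 98.0 CPM in basal buds at T1, 70.1, 59.8 and 42.0 CPM at T3 and 10.7, 8.02 and 7.50 CPM at T5. In apical buds it had 53.4, 55.7 and 55.5 CPM at T1, 41.3, 31.1 and 26.5 CPM at T3 and 5.82, 4.89 and 5.52 CPM at T5. The T5 libraries were below all others in both positions. From T1 to T5, the log2 fold change was -3.18 (SE 0.31, FDR 5.22e-05 by edgeR) in basal and -3.21 (SE 0.18, FDR 1.41e-06) in apical buds.

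PRUPE_3G035700 on chromosome 3 had 51.6, 41.7 and 49.3 CPM in basal buds at T1, 58.5, 56.4 and 55.3 CPM at T3 and 10.3, 8.49 and 5.51 CPM at T5. The apical values were 26.6, 25.4 and 29.9 CPM at T1, 18.9, 24.1 and 23.8 CPM at T3 and 8.74, 3.19 and 3.65 CPM at T5. At T5, apical replicate 1 lay within the basal range, while at T1 and T3 the positions were separate. The log2 fold change from T3 to T5 was -2.66 (SE 0.15, FDR 2.51e-07 by edgeR) in basal and -2.08 (SE 0.30, FDR 0.000355) in apical buds.

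PRUPE_5G014900 on chromosome 5 had few reads. In basal buds it had 3.12, 3.17 and 3.60 CPM at T1, 3.49, 3.04 and 3.09 CPM at T3 and 0.190, 0.698 and 0.426 CPM at T5. In apical buds it had 1.14, 1.23 and 0.715 CPM at T1, 1.02, 0.900 and 0.980 CPM at T3 and 0.144, 0.183 and 0.183 CPM at T5. The T1 and T3 libraries overlapped, and from T3 to T5 the gene fell in both positions, by 2.86 on the log2 scale (SE 0.31, FDR 4.59e-06 by edgeR) in basal and by 2.48 (SE 0.33, FDR 0.000199) in apical buds. At T5, 1 of its apical libraries had only 5 counts, so that the ratio at this date rests on few reads.

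In 8 members, the T1 ratio was at least 2 times that of both other dates, a limit set after the values were seen. They were PRUPE_1G236800, PRUPE_5G129000, PRUPE_3G229900, PRUPE_1G359900, PRUPE_1G244900, PRUPE_8G142100, PRUPE_7G011000 and PRUPE_3G230000, with T1 ratios from 8.48 down to 4.84. PRUPE_5G129000 had 40.2, 58.3 and 46.6 CPM in basal buds at T1, 16.6, 11.9 and 7.09 CPM at T3 and 9.47, 11.4 and 6.49 CPM at T5. Its apical libraries stayed between 3.80 and 6.51 CPM over all dates. The wide gap at T1 thus came from the basal side, where it fell by 1.998 on the log2 scale from T1 to T3 (SE 0.32, FDR 0.00629 by edgeR). The log2 fold change of PRUPE_1G244900 over the same interval was -2.01 (SE 0.36, FDR 0.00987). Without basal T1 replicate 1, 2 or 3 or basal T3 replicate 2, neither gene was called, with FDR values from 0.0142 to 0.0254 for PRUPE_5G129000 and up to 0.0369 for PRUPE_1G244900, whose call also ended without basal T3 replicate 3.

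In PRUPE_1G236800, the gap closed from the other side. Its apical libraries had 1.24, 1.51 and 1.48 CPM at T1, 3.05, 3.13 and 5.68 CPM at T3 and 8.67, 10.2 and 9.61 CPM at T5. Its basal libraries had 10.1, 10.3 and 15.5 CPM at T1, 7.22, 11.8 and 12.6 CPM at T3 and 16.4, 16.7 and 12.4 CPM at T5. The apical libraries of each date lay above those of the date before, and the ratio went from 8.48 to 2.67 and 1.60. In apical buds, the gene rose by a log2 fold change of 2.88 from T1 to T5 (SE 0.26, FDR 1.77e-05 by edgeR), and in basal buds its change was 0.54 (SE 0.22, FDR 0.0577). From T1 to T3, where the ratio went from 8.48 to 2.67, its change was not called in either kind of bud.

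PRUPE_3G229900, PRUPE_3G230000 and PRUPE_3G230100 are 3 members in a row on chromosome 3. PRUPE_3G229900 had 80.6, 128 and 113 CPM in basal buds at T1, 52.7, 30.1 and 18.4 CPM at T3 and 21.2, 29.8 and 13.4 CPM at T5, with apical libraries between 8.50 and 17.9 CPM. PRUPE_3G230000 had 57.8, 89.2 and 80.0 CPM in basal buds at T1 and 43.7, 27.4 and 19.6 CPM at T3, with apical libraries between 13.3 and 19.2 CPM over all dates. In both, the basal replicates spread widely at T3, and only PRUPE_3G229900 was called, with a log2 fold change from T1 to T5 of -2.14 (SE 0.44, FDR 0.00325 by edgeR). This call ended without basal T1 replicate 2 or 3 or basal T5 replicate 1 or 3, with FDR values from 0.01003 to 0.0180.

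The members closest to this row in their pattern were PRUPE_5G129000, PRUPE_7G011000, PRUPE_8G018100, PRUPE_7G120800 and PRUPE_1G359900, with Pearson's correlations from 0.962 to 0.851 between their log2 CPM and the mean of the row over the 18 libraries. They were picked for this likeness after the values were seen. All 8 genes had their lowest basal T1 level in replicate 1 (24.8% of the genes with enough reads). Their highest basal T3 level was in replicate 1 (30.7%) and their lowest in replicate 3 (40.5%). In apical buds at T3, the highest level was in replicate 1 in 3 of them, in replicate 2 in 3 and in replicate 3 in 2. Of the 3 falls called from T1 to T3 in basal buds, 2 were in these 8 genes. The pick used all 18 libraries, so that a shared order of replicates and shared calls follow from it in part. Nothing is read from them.

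**Figure D4:**
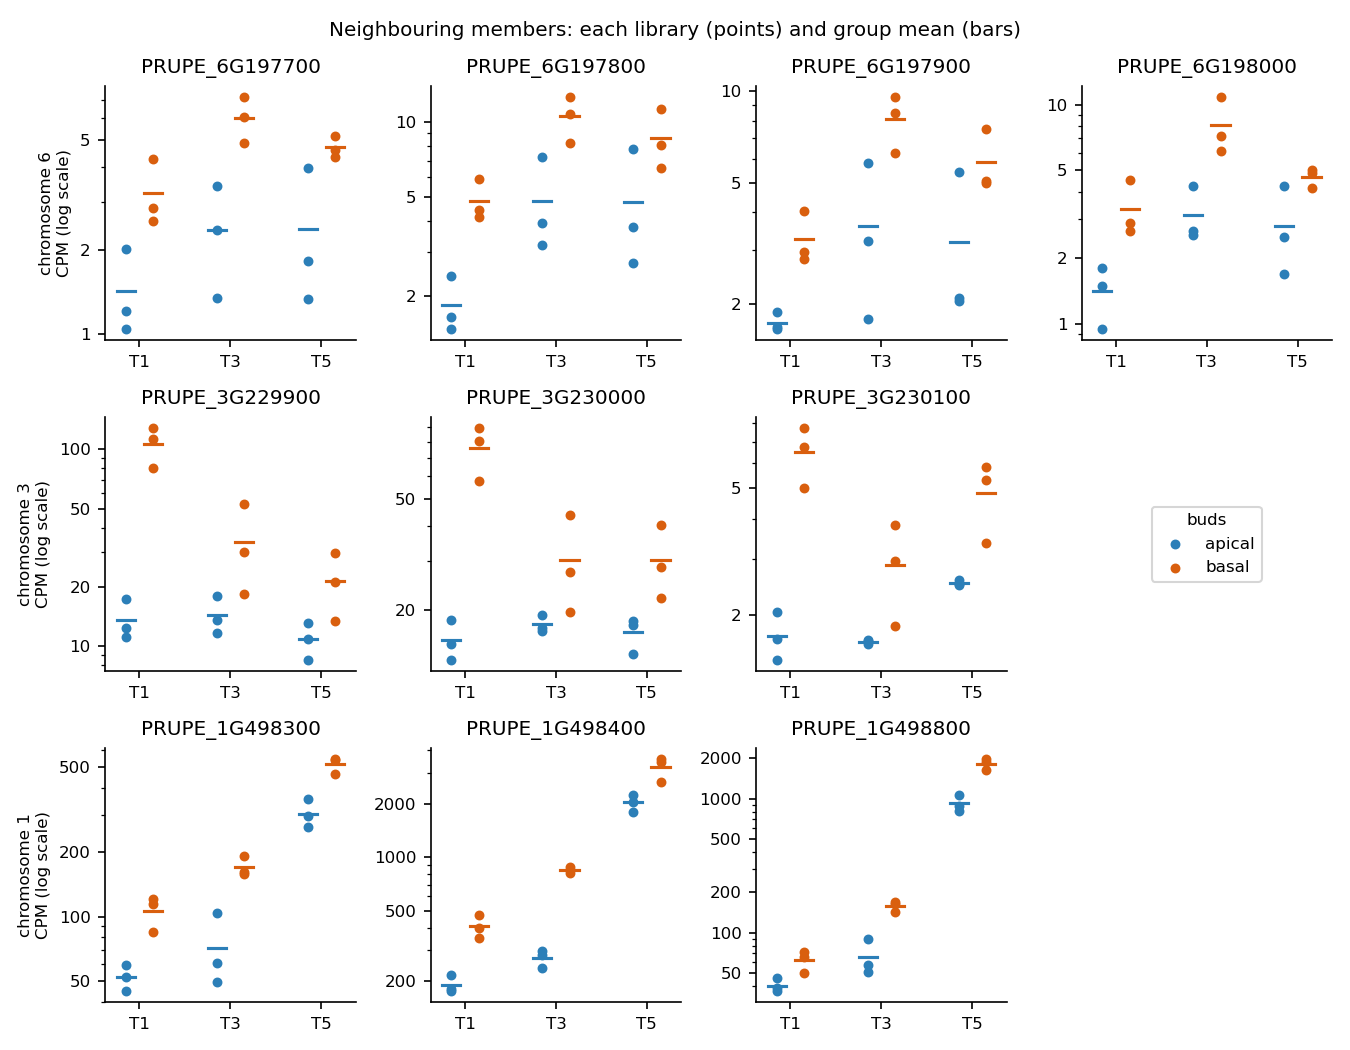
CPM (log scale) of neighbouring members on chromosomes 6, 3 and 1 in each library at T1, T3 and T5, with apical buds in blue, basal buds in orange and short bars at the group means. The row of chromosome 3 is highest in basal buds at T1, the set of chromosome 1 is highest at T5 in both positions, and the row of chromosome 6 is highest in basal buds at T3 with apical points far apart at T3 and T5.

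PRUPE_6G197700, PRUPE_6G197800, PRUPE_6G197900 and PRUPE_6G198000 are 4 members in a row on chromosome 6, with few reads each. PRUPE_6G197800 had 4.43, 5.92 and 4.14 CPM in basal buds at T1, 8.26, 12.5 and 10.8 CPM at T3 and 11.3, 6.55 and 8.06 CPM at T5. Its apical libraries had 1.65, 1.48 and 2.42 CPM at T1, 3.22, 7.25 and 3.95 CPM at T3 and 7.76, 2.72 and 3.80 CPM at T5. The basal and apical libraries overlapped at T5 through apical replicate 1, which was 2 times as high as the other apical libraries or more.

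In basal buds, the last 3 genes of this row rose between T1 and T3, PRUPE_6G197800 by a log2 fold change of 1.17 (SE 0.22, FDR 0.00552 by edgeR), PRUPE_6G197900 by 1.36 (SE 0.21, FDR 0.00159) and PRUPE_6G198000 by 1.31 (SE 0.25, FDR 0.00618). PRUPE_6G197700 had 0.95 (SE 0.20, FDR 0.00824), which is under the 2-fold limit. The calls of PRUPE_6G197800 and PRUPE_6G198000 ended without basal T1 replicate 1 or 3 or basal T3 replicate 2 or 3, with FDR values from 0.0110 to 0.0296, and that of PRUPE_6G197900 without basal T1 replicate 3, with 0.0105. These 4 neighbours are not independent cases, since their log2 CPM had correlations between 0.927 and 0.954 over the 18 libraries.

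PRUPE_6G246200, PRUPE_8G069700, PRUPE_8G237900, PRUPE_5G194400 and PRUPE_4G101900, on other chromosomes or farther along chromosome 6, were the members most like this row, with correlations from 0.966 to 0.925, again picked after the values were seen. In all 9 genes, basal T1 replicate 2, apical T3 replicate 2 and apical T5 replicate 1 were the highest of their groups, and basal T3 replicate 1 and apical T5 replicate 2 were the lowest. Of the 14 rises called from T1 to T3 in basal buds, 8 were in these 9 genes, among them those of the row itself. The pick used the same libraries, so that the shared order of replicates and the shared calls follow from it in part. No conclusion is drawn from either. PRUPE_4G101900 and PRUPE_5G194400 were the 2 members that rose from T1 to T3 and fell from T3 to T5 in basal buds. PRUPE_4G101900 had 3.32, 4.41 and 3.26 CPM at T1, 6.18, 7.15 and 8.80 CPM at T3 and 3.21, 4.03 and 2.88 CPM at T5, so that T3 lay above both other dates without overlap. Its log2 fold changes were 1.06 (SE 0.18, FDR 0.0024 by edgeR) and -1.01 (SE 0.18, FDR 0.000341), close to the 2-fold limit. The first ended without basal T1 replicate 1 or 3 or basal T3 replicate 3, with FDR values up to 0.0138, and the second without basal T3 replicate 3 or basal T5 replicate 1 or 3, where the change was under 2-fold.

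In all, 15 members lay in 6 rows of neighbours at most 3 places apart in the gene order. The other 3 rows were pairs, PRUPE_3G171600 with PRUPE_3G171700, PRUPE_4G116900 with PRUPE_4G117000, and PRUPE_4G169200 with PRUPE_4G169500, with correlations of 0.941, 0.771 and 0.781. PRUPE_3G171600 had 27.4, 33.2 and 26.1 CPM in basal and 14.7, 13.9 and 14.8 CPM in apical buds at T1, and 8.92, 9.53 and 7.27 CPM against 8.62, 4.06 and 2.96 CPM at T5. The groups were separate at T1 and overlapped at T5 through apical replicate 1. Over the whole genome, chromosomes 1 to 8 held 21, 8, 13, 13, 7, 16, 10 and 12 members, beside 22.7%, 11.9%, 11.5%, 10.2%, 9.56%, 13.7%, 10.4% and 9.91% of the genes with enough reads.

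A gap that was widest at another date by the same limit of 2 times was rarer. At T3, PRUPE_8G187700 had 0.300, 0.710 and 1.32 CPM in apical and 3.39, 3.30 and 2.49 CPM in basal buds, a ratio of 3.95, and PRUPE_4G163400 had 0.400, 1.18 and 0.851 CPM against 2.96, 3.42 and 3.12 CPM, a ratio of 3.90. In both genes the lowest apical value was in replicate 1, the library that was low for most members. At T5, PRUPE_5G205900 had 3.69, 1.75 and 1.72 CPM in apical and 14.1, 13.8 and 9.14 CPM in basal buds, a ratio of 5.18. Between T3 and T5, it fell by 2.42 on the log2 scale (SE 0.29, FDR 0.000123 by edgeR) in apical buds, and its change in basal buds was -0.89 (SE 0.19, FDR 0.00264), under the 2-fold limit.

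The steadiest members over time were PRUPE_6G126400, PRUPE_3G070000 and PRUPE_1G372900, whose log2 fold changes in the 6 contrasts were at most 0.14, 0.16 and 0.29 in size. PRUPE_6G126400 had 402, 412 and 395 CPM in basal buds at T1, 379, 340 and 371 CPM at T3 and 301, 347 and 430 CPM at T5. Its apical libraries had 230, 223 and 253 CPM at T1, 180, 205 and 280 CPM at T3 and 213, 240 and 255 CPM at T5. All apical libraries of all dates lay below all basal libraries of all dates.

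The members were also compared between apical buds of a later date and basal buds of an earlier one, a contrast that shares its libraries with the rule and is given as a description. All apical T3 libraries were below all basal T1 libraries in 79 members (33.1% of the genes) and above them in 0 (20.3%). All apical T5 libraries were below all basal T3 libraries in 66 members (37.3%) and above them in 7 (26.1%), and they were below all basal T1 libraries in 58 (40.7%) and above them in 10 (24.5%). For most members, the later apical level was below the earlier basal one. The choice of members with low apical levels favours this, and nothing further is read from it.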

How the data were processed

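RNA of untreated buds was sequenced from stranded mRNA libraries on an Illumina NextSeq instrument. The authors checked reads with FastQC, aligned them with Hisat2 to the peach genome v2.0.a1 and counted them per gene with HTSeq. The counting mode and strand setting are not given in the sources used here, and genes that overlap or have a near-identical copy may have lost or split reads. The deposited values are raw counts per gene and library, with replicates kept apart, and 3023 genes had no count. The names of the columns gave time, position and replicate, and 0 columns were left unmapped.

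CPM was computed with column sums. The members and the lists were chosen with earlier results of these data known. Changes between dates were tested separately in the 9 basal and the 9 apical libraries by quasi-likelihood in edgeR 4.0.16 under R 4.3.3 (robust dispersions, TMM, filterByExpr), with Benjamini-Hochberg adjustment over all genes tested. The SE is the log2 fold change divided by the square root of F. Differences between positions were not tested, because they chose the members. On simulated counts of basal T3 and T5 with 19161 genes, 200 were changed by 2 on the log2 scale. Of the changed genes that passed the filter on low counts, 95.5% were called, with 1 false call. All other genes were simulated without change, whereas 17.4% were called from T3 to T5 in the basal data. The simulation therefore does not gauge calls near the 2-fold limit or calls from T1 to T3. Pairs of replicates differed by 4.53 to 139 per gene in a chi-square comparison, more than sampling noise. With 3 replicates per group, precision is limited by their spread.

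Named genes were the 3 with the largest smallest ratio, the 2 on each side of the limit, the 3 with the most reads, members at most 3 rows apart, and for each contrast up to 2 rises and 2 falls with the largest change among called members without overlap and with at least 100 normalized counts in the higher group. Others were chosen after their values were seen. Alternatives were DESeq2 1.42.0, other scaling, no filter on low counts, an FDR of 0.05, the replicate number as a block, 1 fit of 18 libraries, each library left out in turn, and other settings of the rule. A fit without robust dispersions and T5 without apical replicate 1 were added after seeing the data. By the methods, apical and basal buds of a replicate came from the same shoots at a date, so that equal numbers may pair positions, but not dates. Sequences were not used here. Python 3.11.15 and matplotlib 3.10.9 drew the figures.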

Additional observations from a re-analysis of the deposited data

Results flagged for a closer look

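In 5 members, the change over time in basal buds and that in apical buds went in opposite directions without overlap of the libraries. The difference between the positions was not tested in any of them, and 6.83% of the 17757 genes with enough reads showed such opposite changes in at least 1 of the 3 intervals, so that 5 of 100 is near the background. PRUPE_3G035700 had a log2 fold change from T1 to T3 of 0.31 in basal and -0.20 in apical buds, both not called. PRUPE_4G163400 had -0.21 in basal and 1.10 in apical buds from T3 to T5, both not called. From T1 to T5, PRUPE_1G359900 had -0.48 in basal buds and rose by 1.54 in apical buds, PRUPE_7G120800 had -0.50 and 0.48 with neither called, and PRUPE_7G011000 had -0.86 in basal buds and rose by 1.01 in apical buds, a call that ended without apical T1 replicate 1 or 2 or apical T5 replicate 2. The last 3 belong to the members that resembled the row on chromosome 3.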

How the results depend on the processing

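At an FDR of 0.05 with any fold change, 44, 69 and 69 members were called in basal buds (T1 to T3, T3 to T5, T1 to T5) in place of 17, 36 and 40, beside 16.8%, 65.2% and 67.4% of all genes, and 2, 56 and 63 in apical buds in place of 0, 36 and 38, beside 0.535%, 50.5% and 49.3%. The counts with T5 in basal buds are near those shares. From T1 to T3, apical buds had 5 calls by DESeq2 (0.917% of the genes) and 2 in 1 fit of 18 libraries (0.587%). Over basal T1 to T3, no filter on low counts gave 15 rises and 0 falls, beside 0.434% and 0.339% of all genes. DESeq2 gave 17 and 8 (0.658% and 0.653%), and edgeR without robust dispersions 15 and 7 (0.528% and 0.523%). The main fit gave 14 and 3 (0.497% and 0.43%). Leaving out 1 library gave 4 to 18, 30 to 42 and 37 to 43 calls in basal buds. The shares of all genes in these fits were 0.626% to 0.719%, 15.9% to 17.7% and 17.7% to 19.6%. In apical buds, the calls were 0 to 0, 28 to 34 and 30 to 38. The shares there were 0% to 0.101%, 17.7% to 20.6% and 19.2% to 21.7%. Where replicate numbers were used as a block, 10 members were called over basal T1 to T3 (0.751% of all genes). The samples of different dates share only a number. Between dates, correlations of the deviations of samples with the same number ranged from -0.470 to 0.101. Most samples correlated best with another number. Within dates, the block gave median position differences of 1.09, 1.21 and 0.88 on the log2 scale, beside 1.08, 1.202 and 0.88 without it. It moved no other count of calls by over 1.5 times. A minimum of 5 CPM kept 60 of the 100 members, and leaving out 1 library kept 67 (apical T5 replicate 1) to 98. Median position differences without the library that stood apart were 1.12 at T3 and 1.05 at T5, in place of 1.26 and 0.83. Of the named changes, 244 values under an alternative kept their call and 16 lost it, all of these between T1 and T3 in basal buds. No direction turned. Members with few reads, down to 5 counts in a library, have the least precise ratios.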
